A study of Mus musculus with 3 samples.

Results

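Cd200 Tnfsf8 helper CD4 T cells were described among CD45+ immune cells of the inflamed sciatic nerve. They were CD4 T cells with at least 2 UMIs (captured transcripts, each counted once) in the sum of Tnfsf8, Tnfsf11 and Cd200, and no UMI of S1pr1, Il21, Il10 or Foxp3. They also had at least 1 UMI of Cd4 and of the CD3 genes Cd3d, Cd3e and Cd3g together. No UMI of Cd8a, Cd8b1, Cd79a, Mki67 or Top2a and at most 1 UMI of C1qa, C1qb and C1qc together were allowed, in cells with at most 5000 genes and 20% mitochondrial UMIs. This gate held 302 of 2165 CD4 T cells, or of 13637 cells in all, with 115, 142 and 45 cells in libraries 1 to 3. The same counts chose the cells and show their ligands, so the levels of the gate genes are a description and were not tested.

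All mice were neuropathic NOD.AireGW/+ animals. They carry 1 copy of the GW allele of Aire, the gene that lets the thymus display tissue antigens, in every cell of the body and on the NOD background, which is prone to autoimmunity. Libraries 1 and 2 each hold the cells of 1 mouse, whereas 2 mice were pooled for library 3 and were not told apart here. Cells were sorted as CD45+ from digested nerve. No healthy group was analysed here, so each comparison was between cells of the same libraries and tested no effect of disease.

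Helper CD4 T cells act on other cells through surface ligands and cytokines that appear after antigen recognition. Tnfsf8 (CD30 ligand) and Tnfsf11 (RANKL, which binds the receptor RANK on myeloid cells) are TNF family ligands, and Cd200 is a surface protein that restrains myeloid cells through its receptor Cd200r1. S1pr1 lets lymphocytes leave tissue into lymph and blood and marks recirculating cells, and Il21 is a helper cytokine that acts on B cells and other T cells.

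The libraries held 22983991, 55120460 and 3399733 UMIs in 3926, 8311 and 1533 barcodes, of which 3848, 8256 and 1533 passed the filters. Library 3 was the shallowest, so its sums carry the largest counting error. No barcode was shared among the helper cells of different libraries, and 35, 7 and 14 barcodes were shared among all cells of libraries 1 and 2, 1 and 3, and 2 and 3. Levels are given in CPM. CPM here are the summed UMIs of a class of cells in a library, scaled to a common total with TMM factors. Cd40lg, the ligand through which helper cells activate B cells and dendritic cells, was found in 47.8%, 48.6% and 44.4% of helper cells, against 0.426%, 0% and 0% of the B cells of the same libraries. Median depths were 3050, 3111 and 2128 UMIs in the helper cells and 3945, 2905 and 1710 in the B cells.

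Within the gate, cells with UMIs of more than 1 gate gene were common. The gate asks for at least 2 UMIs in the sum of these genes. It leaves out cells with 1 such UMI, which can hold only 1 of the genes. The patterns are thus set in part by the gate and are a description. Of the 302 helper cells, 97 (32.1%) had UMIs of Cd200, Tnfsf8 and Tnfsf11 at once, and 44, 22 and 20 had only Cd200, only Tnfsf8 or only Tnfsf11. Cd200 was present in 238 cells, Tnfsf8 in 197 and Tnfsf11 in 180. The combination of all 3 genes was the most frequent pattern in libraries 1 and 2, at 35.7% and 31.7%. In library 3 the pair of Cd200 and Tnfsf8 led with 12 of 45 cells, next to 11 cells with all 3 genes. The median helper cell had 4 ligand UMIs in each library, and the highest had 39, 33 and 36.

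**Figure D1:**
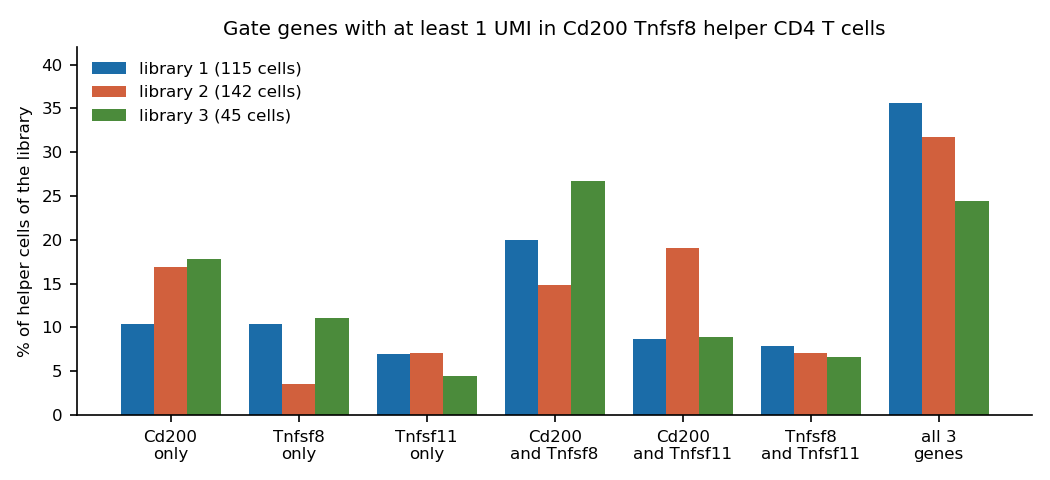
Percent of helper cells of each library (vertical axis) with UMIs of the named gate genes and of no other gate gene (horizontal axis), 1 bar per library. All 3 genes together made up 35.7%, 31.7% and 24.4% of the cells of libraries 1 to 3.

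At the edge of the gate, 74 of the 302 cells had exactly 2 ligand UMIs, and 104 otherwise equal cells lay just outside with 1 UMI. Levels at the edge are pooled over libraries, without TMM scaling and with no test. Dusp14, a dual specificity phosphatase, stood at 44.5, 73.4 and 50.7 CPM in cells with 0, 1 and 2 ligand UMIs, and at 412 CPM in cells with 3 or more. Nrgn, which encodes the calmodulin-binding protein neurogranin, stood at 8.55, 15.5, 54.9 and 174 CPM in the same order. In libraries 1 to 3 it was at 11.2, 0, 28.9 and 118, at 9.28, 7.03, 77.0 and 188, and at 0, 122, 62.3 and 328 CPM. No library alone thus rose at every step. Il2 stood at 10.3, 34.8, 0 and 55.9 CPM in the pooled cells, so cells with exactly 2 ligand UMIs held none. The cells at the threshold were nearer in Dusp14 to the cells outside the gate than to the helper cells with more ligand. Klf2, a transcription factor of resting T cells, was at 498, 363, 266 and 187 CPM in the pooled cells. In library 3 alone the order did not hold, with 474, 163, 498 and 77.2 CPM.

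Dusp14, Nrgn and Il2 had been given as markers of these cells and were not part of the gate. Since they were picked with these data known, their levels carry no test. Dusp14 was at 183, 480.2 and 787 CPM in helper cells of libraries 1 to 3 and at 15.6, 63.8 and 52.8 CPM in ligand-negative cells, which pass the same gate but have no ligand UMI. Nrgn was at 98.3, 197 and 332 CPM in helper cells and at 10.4, 10.1 and 0 CPM in ligand-negative cells. For both genes the helper cells of every library stood above all ligand-negative and S1pr1-positive sums. Il2, the T cell growth factor, was at 38.5, 52.2 and 85.3 CPM in helper cells, against 20.8, 3.36 and 13.2 CPM in ligand-negative cells and 53.9, 38.4 and 0 CPM in S1pr1-positive cells. The Il2 levels of helper and S1pr1-positive cells overlapped.

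The markers were each found in part of the helper cells. Dusp14 was detected in 26, 51 and 21 cells of libraries 1 to 3, Nrgn in 16, 28 and 9, and Il2 in 9, 11 and 4. After each cell was thinned to 1500 UMIs, with 19, 8 and 10 shallower helper cells left out, Dusp14 was found in 18.8%, 26.1% and 37.1% of helper cells (22.6%, 35.9% and 46.7% before thinning). The thinned share was 2.86%, 5.16% and 3.57% in ligand-negative cells, of which 46, 44 and 19 were too shallow, and 1.49%, 3.16% and 2.04% in B cells. The share in helper cells lay above that in B cells in every library. This is a description, since Dusp14 had been given as a marker of these cells. Cells with Il2 nearly all carried Tnfsf11. Of the Il2-positive helper cells, 8 of 9, 10 of 11 and 4 of 4 had a Tnfsf11 UMI, while Tnfsf11 was found in 68 of 115, 92 of 142 and 20 of 45 helper cells in all. The cells with Tnfsf11 were also deeper, with medians of 3970, 3367 and 2769 UMIs against 2567, 2751.5 and 1760.0 without it, and the part of depth in this was not tested.

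**Figure D2:**
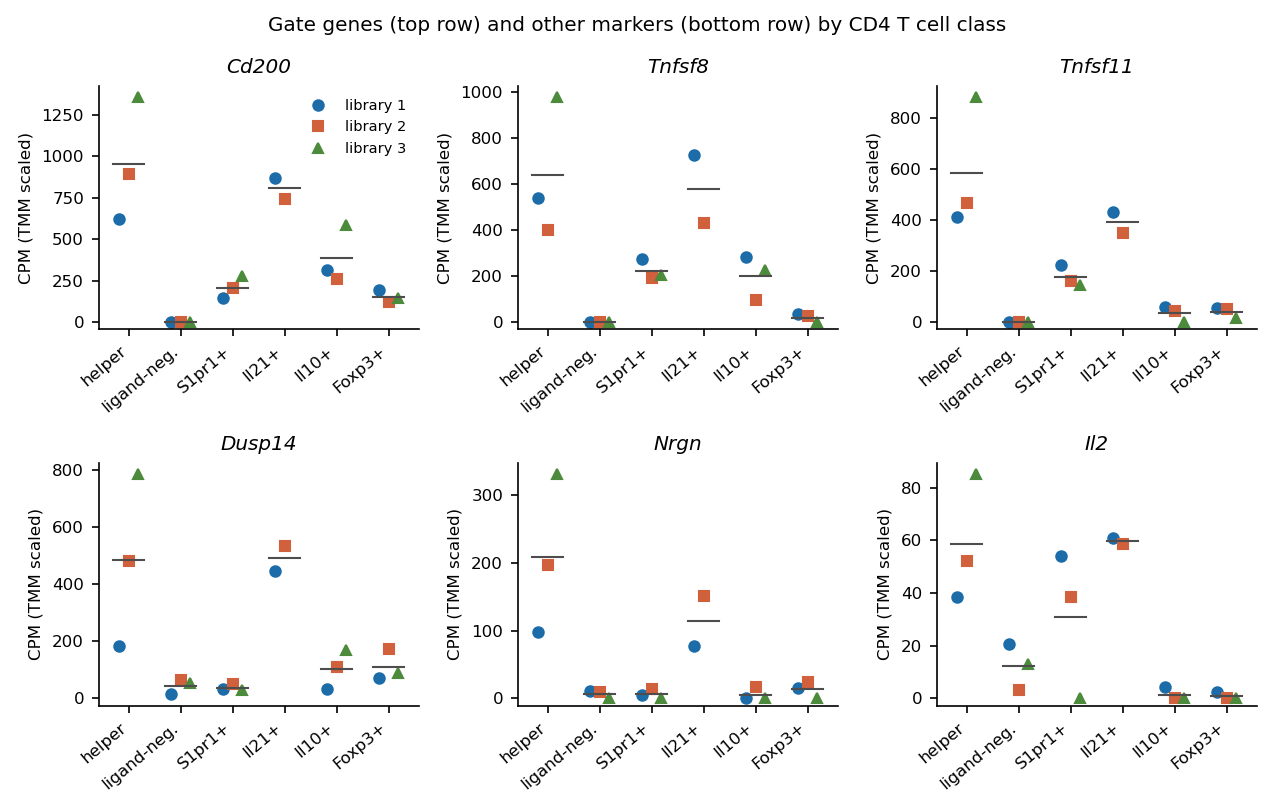
Level in CPM (TMM scaled, vertical axes) of the 3 gate genes and of Dusp14, Nrgn and Il2 in 6 classes of CD4 T cells (horizontal axes), with 1 symbol per library and a line at the mean. Dusp14 ranged from 183 to 787 CPM in helper cells and from 15.6 to 63.8 CPM in ligand-negative cells, and the Il21-positive class of library 3, with 8 cells, is not shown.

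The 6 genes lie on different chromosomes, all on the minus strand (GENCODE vM21, GRCm38). Cd200 spans chr16:45382135-45409053, Tnfsf8 spans chr4:63831308-63861347 and Tnfsf11 spans chr14:78277445-78308043. Dusp14 spans chr11:84048041-84069261, Il2 spans chr3:37120523-37125959 and Nrgn spans chr9:37544492-37552904. The 250 bases before the RefSeq start of the 3 markers outside the gate are printed here, 5′ to 3′ on the minus strand of GRCm38.p6, because these genes were given as markers and did not choose the cells. They are chr3:37125955-37126204 for Il2, chr11:84068358-84068607 for Dusp14 and chr9:37552746-37552995 for Nrgn. The Dusp14 window lies wholly, and the Il2 and Nrgn windows in part, within the GENCODE gene, whose start is farther upstream. Capitals mark GGAAA on either strand (TTTCC on the printed one), the core that NFAT factors bind after T cell receptor signaling.
Il2: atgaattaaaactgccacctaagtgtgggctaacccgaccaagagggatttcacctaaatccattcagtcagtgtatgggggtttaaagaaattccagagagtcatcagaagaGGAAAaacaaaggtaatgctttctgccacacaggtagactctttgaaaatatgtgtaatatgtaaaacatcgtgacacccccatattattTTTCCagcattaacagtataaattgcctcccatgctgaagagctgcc
Dusp14: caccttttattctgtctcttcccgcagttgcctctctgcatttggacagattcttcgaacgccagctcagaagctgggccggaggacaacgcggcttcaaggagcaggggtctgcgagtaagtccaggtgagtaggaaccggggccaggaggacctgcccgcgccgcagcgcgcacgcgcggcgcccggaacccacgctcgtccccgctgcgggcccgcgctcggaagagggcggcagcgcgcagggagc
Nrgn: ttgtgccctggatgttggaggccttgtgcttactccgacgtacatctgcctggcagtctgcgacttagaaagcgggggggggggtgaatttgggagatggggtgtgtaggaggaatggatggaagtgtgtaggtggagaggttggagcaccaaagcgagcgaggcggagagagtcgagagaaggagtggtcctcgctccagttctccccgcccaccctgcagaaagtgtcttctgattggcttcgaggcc
The Il2 window held 2 such matches and the Dusp14 and Nrgn windows held 0. Tnfsf8 and Tnfsf11 had 1 match each in the same window and Cd200 had 0. GGAAA is common, with a match in 55.6% of all 32851 promoter windows of this length. The AP-1 motif TGANTCA (found in 6.75% of windows) and the CRE motif TGACGTCA (1.55%), both searched on both strands, had 0 matches in the 6 windows. A match is a run of letters and not a shown binding site, and the lack of one says only that these letters are not in this window.

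Depth and other cells' RNA differed between the classes compared. The median depth was 3050, 3111 and 2128 UMIs in helper cells of libraries 1 to 3, 1186, 1872 and 1746 in ligand-negative cells, and 3266, 2334 and 1510.0 in S1pr1-positive cells. The ligand-negative cells of library 1 stood apart, with a median of 7.21% ribosomal and 3.07% mitochondrial UMIs, against 19.4% and 1.46% in helper cells. The 7 macrophage markers summed to 1399, 719 and 2492 CPM in helper cells, 1391, 1800.4 and 13.2 CPM in ligand-negative cells and 570.1, 1533 and 188 CPM in S1pr1-positive cells. In library 3, all 180 Apoe UMIs of helper cells came from 1 cell. In helper cells the 7 dendritic cell markers summed to 328, 131 and 0 CPM, the 8 NK and gamma delta T cell markers to 53.9, 26.1 and 0 CPM and the 5 B cell markers to 11.6, 2.01 and 0 CPM. In ligand-negative cells the dendritic cell markers summed to 302, 138 and 0 CPM and the NK and gamma delta T cell markers to 141, 57.1 and 0 CPM. The 6 Schwann and red blood cell markers summed to 118, 80.4 and 66.3 CPM in helper cells, with Pmp22 and Hbb-bs at 0 in every library. What part such RNA had in the results was not tested beyond the counts given without cells that held it.

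To see what accompanied the ligands beyond the gate, helper cells were compared with ligand-negative cells of the same libraries. Helper cells were higher in the lymph node homing receptor Ccr7, the cytokine lymphotoxin alpha (Lta), the chemokine Xcl1, which attracts cross-presenting dendritic cells, and the Rab GTPase-activating protein Tbc1d4. They were lower in Ifngr1, a chain of the interferon gamma receptor, in the chemokine Ccl5 and in the cytotoxic protease Gzmb. Of 6432 genes compared by edgeR's quasi-likelihood method, 76 passed an adjusted p under 0.05 (1.18%), with 36 higher (0.56%) and 40 lower (0.622%) in helper cells. Leaving out library 2 gave 36 of 5141 genes tested, of which 25 were among the 76. Leaving out libraries 1 or 3 gave 64 of 7061 and 52 of 7336. With cells paired by UMI depth within a library, 50 of 2688 genes passed, 33 of them among the 76. Without cells that held more than 1 UMI of other lineages' markers, 207 of 5277 genes passed, 69 of them among the 76.

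Ccr7 was at 447, 806 and 2682 CPM in helper cells of libraries 1 to 3 and at 167, 101 and 238 CPM in ligand-negative cells. The groups did not overlap, and library 3 was far above the others. The log2 difference was 2.72 (SE 0.35, edgeR adjusted p = 9.74e-06). Lta was at 82.8, 129 and 94.8 CPM against 0, 20.2 and 13.2 CPM, again without overlap, a log2 difference of 3.07 (SE 0.50, edgeR adjusted p = 0.000508). It was detected in 14, 41 and 5 helper cells. In library 1, 20 of its 43 UMIs came from 1 cell, and library 3 held 10 UMIs. Tbc1d4 was at 389, 329.5 and 246 CPM against 135, 80.6 and 106 CPM, a log2 difference of 1.69 (SE 0.24, edgeR adjusted p = 6.01e-05). Xcl1 was at 183, 121 and 313 CPM against 57.3, 0 and 26.4 CPM. That difference rested on few cells, since Xcl1 was found in 18, 8 and 1 helper cells and all 33 Xcl1 UMIs of library 3 came from 1 cell. Its log2 difference was 2.86 (SE 0.66, edgeR adjusted p = 0.0215), with an edgeR adjusted p of 0.137 without library 3.

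The other named rises were Nrn1 (neuritin, log2 difference 2.17), Nfe2l2 (NRF2, a regulator of the oxidative stress response, 1.72), Stx11 (a syntaxin of secretory granules, 1.67) and Plscr1 (a phospholipid scramblase, 1.62). Ifngr1 was at 703, 378 and 635 CPM in helper cells against 1824, 1330.2 and 1836 CPM, so that every helper sum lay below every ligand-negative sum. The log2 difference was -1.57 (SE 0.16, edgeR adjusted p = 9.71e-08). Ccl5 was at 1171, 4611 and 1478 CPM against 5034, 6846 and 7699 CPM, a log2 difference of -1.58 (SE 0.26, edgeR adjusted p = 0.000743). The Ccl5 sums did not overlap either, although library 2 of the helper cells came close to the lowest ligand-negative sum. Gzmb was at 48.2, 157 and 19.0 CPM against 141, 605 and 106 CPM, so that the groups overlapped across libraries while each library showed the fall (log2 difference -1.84, edgeR adjusted p = 0.0206).

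Further named falls were Sdc4 (syndecan 4, -1.83), Satb1 (a chromatin organizer of T cells, -1.81), Dgat1 (an enzyme of triglyceride synthesis, -1.59), Neurl3 (-1.52), Gramd3 (-1.51), Arid5a (-1.50) and Rflnb (-1.45). Of the 18 largest changes outside the marker set, Ccr7, Lta, Tbc1d4, Ifngr1 and Gramd3 passed the test without each library in turn, and the other 13 missed it without at least 1 library. Without library 1, 4 missed it, with edgeR adjusted p from 0.0722 to 0.499 (Nfe2l2, Rflnb, Satb1 and Sdc4). Without library 2, 8 missed it (0.0818 to 0.443), and without library 3, 11 (0.0513 to 0.137), all in the same direction. With depth-paired cells 15 of the 18 could be tested and 10 passed, and Nrn1, Dgat1, Neurl3, Arid5a and Rflnb missed it. Igfbp7, an insulin-like growth factor binding protein, was singled out after its values were seen. It was at 69.4, 60.3 and 104 CPM against 5.21, 6.72 and 0 CPM, a log2 difference of 3.65 (SE 0.66, edgeR adjusted p = 0.00213), and passed without each library in turn.

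**Figure D3:**
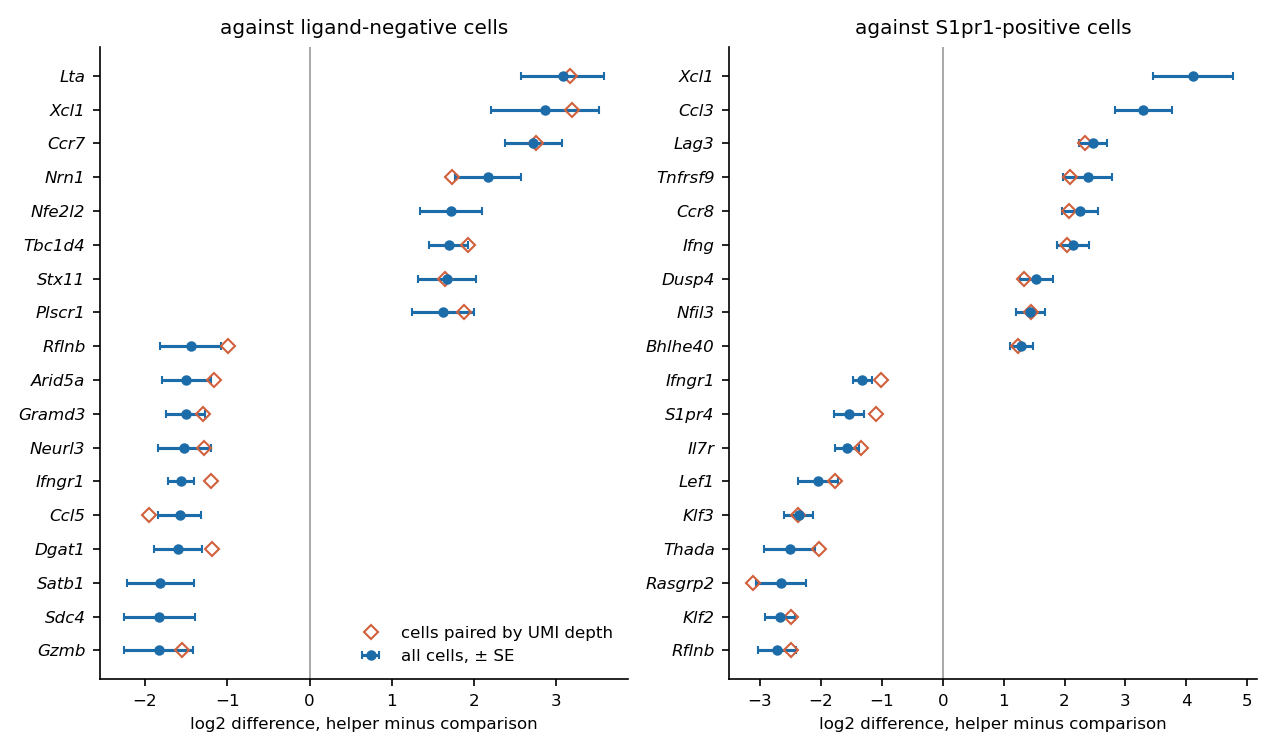
Log2 difference (horizontal axes, helper minus comparison class, with SE from edgeR) for named genes against ligand-negative (left) and S1pr1-positive cells (right). Open diamonds give the same difference in cells paired by UMI depth, where Ccr7 against ligand-negative cells was at 2.75, and genes with no diamond were not tested there.

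Grouped by function, the difference from ligand-negative cells was spread over several lists. The median log2 difference over all genes tested was -0.01. Of 11 cytotoxic genes tested 4 fell, namely Ccl5 (-1.58), Gzmb (-1.84), Gzmk (-1.32) and Prf1 (-2.12), 0 rose, and the list's median was -0.88. Gzmk is a granule protease and Prf1 the pore-forming perforin, and both passed narrowly, with edgeR adjusted p = 0.0440 and 0.0492. Of 13 Th1 genes Ifng (0.98) rose, Ccl5, Ifngr1 and the interleukin 18 receptor chain Il18r1 (-1.20) fell, and the median was -0.88. Of 15 glycolysis enzymes 3 rose, namely Aldoa (0.82), Pgam1 (1.03) and Tpi1 (1.02), 0 fell, and the median was 0.43. Without library 1, the threshold was missed by Prf1 (0.152), Il18r1 (0.0934), Aldoa (0.152), Pgam1 (0.105) and Tpi1 (0.341) (edgeR adjusted p in brackets). Without library 2 it was missed by Gzmb (0.135), Ifng (0.423), Il18r1 (0.245), Aldoa (0.140), Pgam1 (0.282) and Tpi1 (0.249). Without library 3 it was missed by Ccl5 (0.0584), Gzmb (0.0513), Gzmk (0.158), Prf1 (0.103), Ifng (0.194), Il18r1 (0.0728), Aldoa (0.0513), Pgam1 (0.0846) and Tpi1 (0.0592).

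Of 20 genes of the antigen receptor response Bhlhe40 (0.84) and the signaling inhibitor Spry1 (1.13) rose and 0 fell, with a median of 0.33. Among 8 TNF receptor family genes Tnfrsf4 (OX40, 0.76) rose and Cd27 (-1.20) fell, with a median of 0.11. Among 7 TNF family ligands outside the gate Lta passed and the median was 0.73. Cd40lg, at 247, 257 and 322 CPM against 146, 128 and 145 CPM, narrowly missed the threshold with a log2 difference of 0.94 (edgeR adjusted p = 0.0536). Among 14 resting and egress genes Ccr7 rose and Klf2 (-1.35) and Satb1 fell (median -0.58). Among 7 chemokine receptors Ccr7 rose and the inflammatory receptor Ccr2 (-1.05) fell (median -0.61). Of 9 genes of regulatory T cells other than Foxp3, Ikzf2 (Helios, -1.45) fell (median -0.84). Of 10 other cytokines and chemokines Xcl1 rose, and of 12 tissue residency genes Bhlhe40 rose. The edgeR adjusted p without library 1 exceeded 0.05 for Satb1 (0.0722) and Ccr2 (0.185). The same held without library 2 for Spry1 (0.405), Tnfrsf4 (0.211), Cd27 (0.140), Satb1 (0.443), Ccr2 (0.630) and Ikzf2 (0.0794). The same held without library 3 for Bhlhe40 (0.0951), Spry1 (0.0728), Tnfrsf4 (0.138), Klf2 (0.0592) and Xcl1 (0.137).

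In the lists of Dusp phosphatases (6 tested), anergy (12), follicular helper (14), Th2 (4), Th17 (4), inhibitory receptors (8), interferon response (13), heat shock and dissociation (15), receptors of the gate ligands (1), macrophages (6), dendritic cells (3), NK and gamma delta T cells (1) and Schwann and red blood cells (1), 0 genes passed, and no B cell marker was tested. In the order given, their medians were 0.11, -0.08, 0.28, -0.67, 0.04, -0.20, -0.63, 0.16, -0.16, 0.36, -0.47, -1.68 and 0.08. A positive difference was seen in 2 of the 13 interferon response genes and 0 of the 4 Th2 genes. The costimulator Icos was at 948, 657 and 1298 CPM against 1428, 859.9 and 1241 CPM, and the inhibitory receptor Pdcd1 (PD-1) at 447, 237 and 246 CPM against 547, 249 and 462 CPM. Both overlapped across libraries and neither passed, with log2 differences of -0.31 and -0.35 (edgeR adjusted p = 0.448 and 0.550), while within libraries Icos was lower in helper cells in 2 of 3 and Pdcd1 in 3 of 3. Of 81 ribosomal protein genes 2 passed, both higher, and all 81 had a positive log2 difference with a median of 0.30, beside the low ribosomal share of the library 1 ligand-negative cells. With ribosomal and mitochondrial genes left out, 70 genes passed, 69 of them among the 76.

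Helper cells were next set against S1pr1-positive cells, which pass the gate with at least 1 S1pr1 UMI and any ligand count and share the helper sums with the comparison above. Helper cells were higher in activation, chemokine and inhibitory receptor genes such as Lag3, Tnfrsf9, Ccl4 and Ifng, and lower in genes of resting T cells such as Klf2, Klf3, Il7r and Lef1. Of 6432 genes 272 passed (4.23%), with 144 higher (2.24%) and 128 lower (1.99%) in helper cells. Leaving out libraries 1, 2 and 3 gave 145, 108 and 219 of 7061, 5141 and 7336 genes tested. Of these, 121, 88 and 193 were among the 272.

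Lag3, an inhibitory receptor of activated T cells, was at 543, 399.8 and 512 CPM in helper cells and at 97.3, 70.7 and 130.1 CPM in S1pr1-positive cells. Its log2 difference was 2.46 (SE 0.23, edgeR adjusted p = 2.47e-08), and the groups were apart in every library. Klf2 was at 262, 191 and 152 CPM against 1474, 1302 and 1069 CPM, a log2 difference of -2.67 (SE 0.24, edgeR adjusted p = 2.24e-08). Klf2 is known to drive S1pr1, the gene that chose the comparison class. Rflnb (-2.72), the T cell signaling exchange factor Rasgrp2 (-2.66), Thada (-2.52) and Klf3 (-2.36) were the other largest falls.

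Xcl1 was at 12.2, 8.08 and 0 CPM in S1pr1-positive cells, below all helper sums (log2 difference 4.11, edgeR adjusted p = 0.000124). The chemokine Ccl3 was at 65.5, 354 and 9.48 CPM in helper cells against 22.6, 14.1 and 0 CPM (log2 difference 3.29). Library 2 carried the Ccl3 difference, which was 1.54 without it (edgeR adjusted p = 0.207). Of these 8 largest changes outside the marker set, the 7 other than Ccl3 passed without each library in turn. Ccr7, in contrast, was at 610.1, 511 and 650.3 CPM in S1pr1-positive cells, overlapping the helper levels, and did not pass (log2 difference 0.73, edgeR adjusted p = 0.185).

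Of 14 resting and egress genes 7 fell and 1 rose, with a list median of -1.29 against 0.01 over all genes tested. The gates split these classes on S1pr1, itself an egress gene, and its part in the fall of this list was not tested. Il7r, the interleukin 7 receptor chain, was at 385, 249 and 369.6 CPM against 956, 993 and 910.4 CPM (log2 difference -1.57, edgeR adjusted p = 3.76e-06). The other falls were Klf2, Klf3, the Wnt pathway factors Lef1 (-2.04) and Tcf7 (-1.44), Satb1 (-2.10) and the receptor S1pr4 (-1.54), and the rise was the gut homing receptor Ccr9 (2.24). Ccr9 was at 141, 12.1 and 0 CPM in helper cells against 10.4, 18.2 and 0 CPM, so that 1 of 3 libraries was higher, and it was found in 5, 3 and 0 helper cells, with 37 of the 73 UMIs of library 1 in 1 cell. Calls lost without library 2, with the edgeR adjusted p, were Tcf7 (0.0751). Those lost without library 3 were Ccr9 (0.0880).

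Of 20 antigen receptor response genes 7 rose and 0 fell, with a median of 0.61. They were Bhlhe40 (1.29), Nfil3 (1.44), Nr4a2 (1.82), Spry1 (1.73), Cd83 (1.71), Rel (0.84) and Nr4a1 (0.60). Of 6 Dusp phosphatases other than Dusp14, Dusp1 (0.92) and Dusp4 (1.54), which switch off MAP kinases, rose and Dusp10 (-1.79) fell. Of 12 anergy genes Lag3 rose and the diacylglycerol kinase Dgka (-1.20) fell. When library 1 was left out, the edgeR adjusted p rose above 0.05 for Rel (0.158) and Nr4a1 (0.658). When library 2 was left out, it did so for Spry1 (0.143), Cd83 (0.200), Rel (0.339), Nr4a1 (0.543) and Dgka (0.134).

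All 8 inhibitory receptors tested had a positive difference (median 1.06), and 4 rose, namely Lag3, Havcr2 (TIM-3, 2.44), Btla (1.08) and the ectonucleotidase Entpd1 (1.36), with Havcr2 and Btla higher in 2 of 3 libraries. Of 10 other cytokines and chemokines 4 rose, namely Xcl1, Ccl3, Ccl4 (2.29) and the macrophage growth factor Csf1 (3.87), which was found in 10, 14 and 2 helper cells. Ccl4 was at 659, 856 and 47.4 CPM against 125, 159.5 and 43.4 CPM, so library 3 showed almost no difference. Among 7 TNF family ligands Lta (1.76) and Tnfsf10 (TRAIL, 1.89) rose, and among 8 receptors Tnfrsf4 (0.79) and the costimulator Tnfrsf9 (4-1BB, 2.38), which turned to -0.53 when the gate was set on thinned cells. Cd40lg, at 269, 204 and 303 CPM in S1pr1-positive cells, overlapped the helper levels. Without library 1, the threshold was missed by Btla (0.429) and Tnfsf10 (0.218) (edgeR adjusted p in brackets). Without library 2 it was missed by Havcr2 (0.753), Btla (0.802), Entpd1 (0.537), Lta (0.194), Tnfsf10 (0.403) and Tnfrsf4 (0.208). Without library 3 it was missed by Entpd1 (0.0518).

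Of 13 Th1 genes Ifng (2.13), Nkg7 (1.245) and Ccl5 (0.99) rose and Ifngr1 (-1.32), Il18r1 (-0.996) and Txk (-1.79) fell, and the median was 0.09. Ifng was at 223, 504 and 389 CPM against 64.3, 105 and 72.3 CPM, with no overlap (SE 0.26, edgeR adjusted p = 2.60e-06). Of 11 cytotoxic genes Ccl5, the granule protease Gzma (2.86), the NK receptor chain Klrd1 (2.53) and Nkg7 rose and 0 fell (median 0.56). Gzma, Klrd1 and Nkg7 were higher in 2 of 3 libraries. Gzma rested on single cells, since 1 helper cell held all 43 Gzma UMIs of library 1 and another 33 of the 41 of library 2. Of 15 glycolysis enzymes 6 rose, among them Tpi1 (1.90), Pgk1 (0.84) and Gapdh (0.66), and 0 fell (median 0.34). Of 7 chemokine receptors Ccr8 (2.26) and Cxcr6 (1.06) rose and 0 fell (median -0.05), Ccr8 with 299, 117 and 218 CPM against 67.8, 26.3 and 43.4 CPM. The edgeR adjusted p without library 1 exceeded 0.05 for Gzma (0.357), Pgk1 (0.0718) and Gapdh (0.106). The same held without library 2 for Nkg7 (0.240), Ccl5 (0.516), Il18r1 (0.896), Txk (0.0654), Pgk1 (0.0932), Gapdh (0.220) and Cxcr6 (0.634). The same held without library 3 for Ccl5 (0.0651) and Pgk1 (0.0909).

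Of 14 follicular helper genes Tox (1.08), Btla and Angptl2 (1.96) rose and Tcf7 fell, and of 12 tissue residency genes Bhlhe40, Cxcr6 and Rgs16 (1.59) rose. Of 15 genes induced by heat shock and cell dissociation Fos (1.09) and Atf3 (2.51) rose. Tox, Angptl2 and Atf3 were higher in 2 of 3 libraries. Atf3 was at 484, 113 and 0 CPM in helper cells, and in library 1, 105 of its 251 UMIs came from 1 cell. Calls lost without library 1, with the edgeR adjusted p, were Tox (0.134), Angptl2 (0.786) and Atf3 (0.0914). Those lost without library 2 were Tox (0.792), Angptl2 (0.0843) and Fos (0.0521). Those lost without library 3 were Fos (0.0818) and Atf3 (0.0603). In the lists of Th2 (4 tested), Th17 (4), regulatory T cell (9), interferon response (13), macrophage (6), dendritic cell (3), NK and gamma delta T cell (1), Schwann and red blood cell (1) and gate ligand receptor genes (1), and among 81 ribosomal protein genes, 0 passed. In the order given, their medians were -0.40, 0.60, 0.63, 0.02, 0.77, 0.63, 1.51, -0.01, 0.75 and -0.07. All 6 macrophage, all 3 dendritic cell and 8 of 9 regulatory T cell genes had a positive difference, against 1 of 4 Th2 genes.

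**Figure D4:**
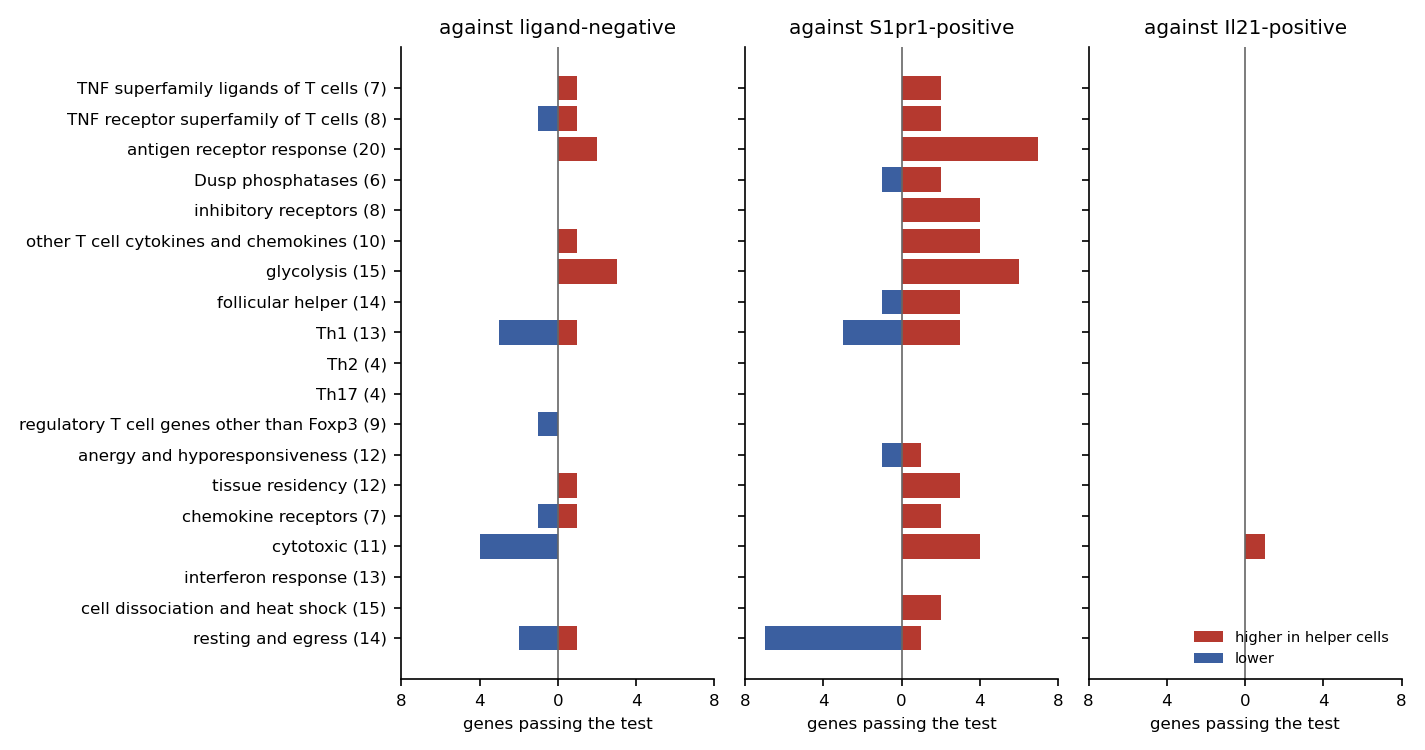
Number of genes of each list (vertical axis, genes tested in brackets) that were higher (bars to the right) or lower (bars to the left) in helper cells at an edgeR adjusted p under 0.05, in 3 comparisons. Of 20 antigen receptor response genes 7 were higher, and of 14 resting and egress genes 7 lower, than in S1pr1-positive cells, and 1 gene of the lists (Gzma) passed against Il21-positive cells.

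Il21-positive cells are CD4 T cells without Foxp3 that had at least 1 Il21 UMI. They were chosen neither for their ligands nor for the absence of Il10 and S1pr1, and so held 230.2 and 237 CPM of Il10 and 95.9 and 48.8 CPM of S1pr1 in libraries 1 and 2, against 0 in helper cells by the gate. Cd200 was at 869.6 and 742 CPM in Il21-positive cells of libraries 1 and 2 and at 620.3 and 890.1 CPM in helper cells. Tnfsf8 was at 726 and 432 CPM against 539 and 398 CPM, and Tnfsf11 at 432 and 349 CPM against 410.3 and 466 CPM. Dusp14 was at 444 and 534 CPM and Nrgn at 76.7 and 151 CPM in Il21-positive cells. Il2, without TMM scaling and with no test, was at 61.4 and 50.1 CPM in Il21-positive cells. In helper cells of libraries 1 and 2 it was lower, at 39.1 and 44.1 CPM on that scale. The levels of Dusp14 and Nrgn overlapped between the classes, and those of the 3 gate genes were set in helper cells by the gate. The Il21-positive class of library 3 held 8 cells, under the minimum of 10, so the test rested on libraries 1 and 2.

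Of 6432 genes, 4 passed (0.0622%), 2 of them higher (0.0311%) and 2 lower (0.0311%) in helper cells, and 282 had an unadjusted p under 0.05. Socs2, a suppressor of cytokine signaling, was at 67.4 and 78.4 CPM in helper cells of libraries 1 and 2 and at 157 and 281 CPM in Il21-positive cells (log2 difference -1.49, SE 0.31, edgeR adjusted p = 0.0330). Baz1a, a chromatin remodeler subunit, was at 114 and 133 CPM against 217 and 342 CPM (-1.12, SE 0.22, edgeR adjusted p = 0.0330). Both genes were also above the helper levels in Il10-positive cells of libraries 1 and 2, with Socs2 at 159 and 271 CPM and Baz1a at 254 and 351 CPM, and the part of Il10-expressing cells in this comparison was not tested. The rises were Cxcl9 (3.71), a chemokine made by interferon-stimulated myeloid cells, and Gzma (4.80). Both rested on single cells, since 191 of the 211 Cxcl9 UMIs of library 1 helper cells came from 1 cell. When library 1 was left out, the edgeR adjusted p rose above 0.05 for Baz1a (0.191) and Cxcl9 (1.00). When library 2 was left out, it did so for Socs2 (1.00) and Baz1a (1.00). When library 3 was left out, it did so for Cxcl9 (0.188) and Gzma (0.188). In the lists, Gzma alone passed.

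The count of 4 depended on the fit. It was 15 without library 1, 17 without library 2 and 3 without library 3, 81 in depth-paired cells, 69 when only these 2 classes entered, and 2 with DESeq2. Without library 1 or 2 the Il21-positive class is a lone sum that is assumed to vary like the other classes. Several genes missed the threshold here and passed in depth-paired cells. Ifng was at 834 and 576 CPM in Il21-positive cells against 223 and 504 CPM in helper cells (log2 difference -0.99, edgeR adjusted p = 0.128). Lag3 was at 761 and 808 CPM against 543 and 399.8 CPM (-0.68, edgeR adjusted p = 0.466), and the transcription factor Maf at 451 and 437 CPM against 250.4 and 205 CPM (-0.91, edgeR adjusted p = 0.320). Lag3 and Maf too were high in Il10-positive cells of these libraries, at 1519.6 and 1311 and 749 and 629 CPM. Klf2 was at 109 and 115 CPM against 262 and 191 CPM (0.95, edgeR adjusted p = 0.749). Lta was at 159.9 and 146 CPM, Igfbp7 at 102 and 102 CPM and Cd40lg at 371 and 298 CPM in Il21-positive cells, with log2 differences of -0.48, -0.57 and -0.34 and an edgeR adjusted p of 1.000 for each.

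**Figure D5:**
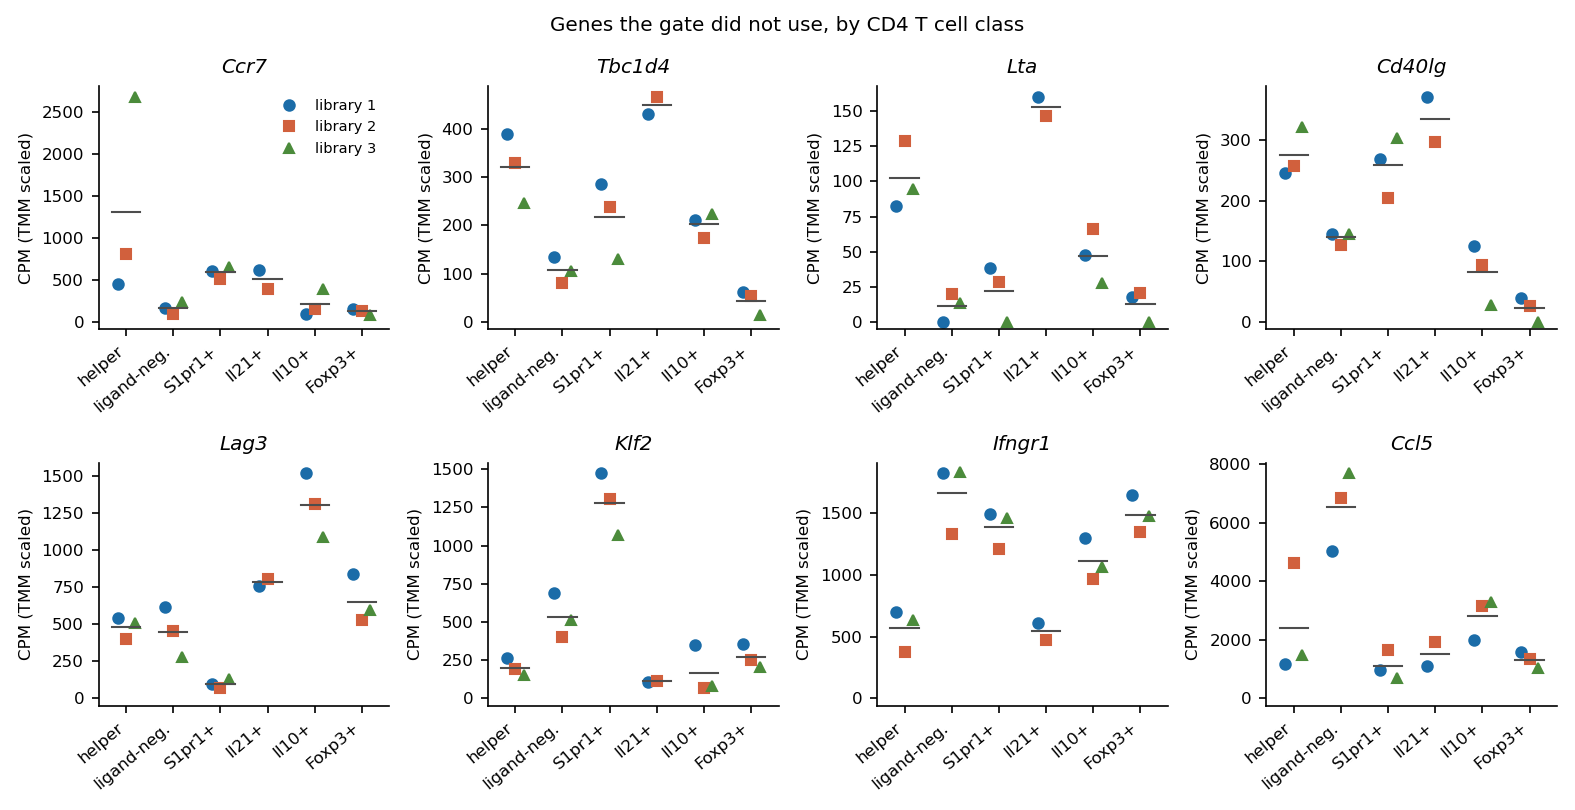
Level in CPM (TMM scaled, vertical axes) of 8 genes outside the gate in 6 classes of CD4 T cells (horizontal axes), with 1 symbol per library and a line at the mean. Ccr7 in helper cells ranged from 447 to 2682 CPM, and Klf2 in S1pr1-positive cells from 1069 to 1474 CPM.

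Receptors for the gate ligands were measured in other cells of the same nerves, given here as CPM without TMM scaling and with no test. Tnfrsf11a, which encodes RANK, was at 52.5, 25.003 and 61.8 CPM in C1q-positive macrophages of libraries 1 to 3, from 9, 1889 and 5 cells, and at 14.2, 22.1 and 0 CPM in Flt3-positive dendritic cells. In helper cells themselves it was at 1.96, 6.78 and 0 CPM. The macrophage values of libraries 1 and 3 rested on 3 UMIs and 1 UMI, and that of library 2 on 355 UMIs. Cd200r1 was at 78.8, 12.6 and 0 CPM in Flt3-positive dendritic cells and at 17.5, 4.51 and 0 CPM in C1q-positive macrophages. It was at 54.7, 17.0 and 25.1 CPM in helper cells and at 57.2, 34.3 and 30.2 CPM in Foxp3-positive cells. Tnfrsf8 (CD30) was at 12.3, 12.1 and 0 CPM in Foxp3-positive cells, from 14, 12 and 0 UMIs. In CD8 T cells it was at 10.9, 9.33 and 2.89 CPM, from 60, 46 and 2 UMIs. In helper cells it was at 5.87, 0 and 8.36 CPM, from 3, 0 and 1 UMIs. The decoy receptor Tnfrsf11b had no UMI in any class.

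The receptor chains of helper cells were mixed. A Trbv gene was detected in 102, 125 and 39 helper cells, and 18, 16 and 12 different genes led in at least 1 cell. The most frequent was Trbv5 in library 1 (24.5%), Trbv1 in library 2 (15.2%) and Trbv13-2 in library 3 (25.6%), so the libraries differed. The effective number of Trbv genes (the inverse of the summed squared shares) was 8.74, 11.4 and 7.49 in helper cells and 9.70, 10.8 and 12.04 in ligand-negative cells. Trbv13-1, Trbv13-2 and Trbv13-3 are close copies whose reads can be split wrongly, and no clonal identity was read from these values.

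Helper cells made up 12.9% (exact 95% interval 10.7 to 15.2), 13.4% (11.4 to 15.6) and 21.2% (15.9 to 27.4) of CD4 T cells in libraries 1 to 3. The mean was 15.8% ± 4.68 (SD, n = 3 libraries), and the intervals cover counting error only. Library 3, from the pooled mice, lay above the other libraries. Ligand-negative cells made up 9.06%, 13.3% and 22.2%, S1pr1-positive cells 18.3%, 19.7% and 21.2%, and Il21-positive cells 7.61%, 10.2% and 3.77%. The gate asks for detected and for absent transcripts, and the part of depth in these shares was not tested. When the gate was set on cells thinned to 1500 UMIs, the helper share was 17.3%, 13.2% and 27.2%. That setting also left out shallower cells, and 490, 589 and 92 CD4 T cells stood in place of 894, 1059 and 212.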

How the data were processed

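Single-cell 5′ gene expression libraries of CD45+ cells were analysed, 3 in 1 group. The authors mapped the reads to mm10 with Cell Ranger (5.0.1 for library 1 and 6.1.2 for libraries 2 and 3, per the file headers) and deposited UMI counts for 32285 gene rows, unnormalized. Library 1 came with no gene list of its own and the row order of the others was used. Its row totals correlated with those of libraries 2 and 3 (Spearman 0.9501 and 0.9287 across genes, and 0.362 and 0.3212 after a shift by 1 row). Cells with more than 5000 genes or 20% mitochondrial UMIs were left out after the study, whose minimum of 300 removed no cell, since the lowest kept cell had 501 UMIs.

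The helper cells, their markers and the gene lists were chosen with earlier results of these data known. Some listed genes are not reported here and were left out of the lists. Doublets were not called, and an alternative left out cells with more than 1 UMI in the sum of Cd79b, Ms4a1, Lyz2, Apoe, Tyrobp and Fcer1g. UMIs were summed per library and class, without sums under 10 cells, and 17 sums of 6 classes (helper, ligand-negative, S1pr1-, Il21-, Il10- and Foxp3-positive cells) were fitted together with edgeR 4.0.16 in R 4.3.3. The fit used the quasi-likelihood test, TMM scaling, filterByExpr, the library as a replicate block, and p-values adjusted by Benjamini-Hochberg across the genes tested. The classes of a library came from the same mice, and this is where the pairing comes from. Genes of the gates were left out of the counts. SE is the log2 difference divided by the root of F. Named genes were those of the lists and, at an adjusted p under 0.05, with the same direction in every library and a mean of at least 50 CPM, the 10 largest changes each way against ligand-negative cells and 5 against the others, without antigen receptor, ribosomal, mitochondrial and model genes.

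Alternatives were DESeq2 1.42.0, RLE scaling, no filter, no replicate block, each library left out, only the 2 classes compared, a gate of 3 ligand UMIs, a gate on cells thinned to 1500 UMIs, cells paired by depth with UMI totals differing by at most 25%, cells without other lineages' UMIs, and ribosomal and mitochondrial genes left out. The pairing limit was set after the depths were seen. Shares carry exact Clopper-Pearson intervals at 95%. Promoter windows are RefSeq, GRCm38.p6.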

Additional observations from a re-analysis of the deposited data

How the results depend on the processing

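Counts of genes that passed moved with the fit, and so did the number of genes tested. That number was 6432 in the main fit, without the block and with DESeq2, 15415 with no filter and 6427 with a gate of 3. It was 7061, 5141 and 7336 without libraries 1, 2 and 3, 2448 on thinned cells and 5277 without other lineages' UMIs. With only the 2 classes it was 3701, 6006 and 6149 against ligand-negative, S1pr1-positive and Il21-positive cells. In depth-paired cells it was 2688, 5081 and 5258 in the same order. Against ligand-negative cells the 76 genes became 7 without the replicate block, 157 with DESeq2, 186 with no filter on low counts, 135 with only the 2 classes compared, 144 with a gate of 3 ligand UMIs, 50 in depth-paired cells and 207 without cells that held other lineages' UMIs. Against S1pr1-positive cells the 272 genes became 40 without the replicate block, 449 with only the 2 classes and 149 with the gate on thinned cells. Against Il21-positive cells the 4 genes became 0 without the replicate block (91 at an unadjusted p under 0.05 in edgeR), 2 with DESeq2 (150 unadjusted), 45 with no filter, 69 with only the 2 classes, 81 in depth-paired cells, 17 with the gate on thinned cells and 23 without cells with other lineages' UMIs. Leaving out 1 library gave 36 to 64, 108 to 219 and 3 to 17 genes in these comparisons, and a helper share of 13.1% to 17.3%. The share was 11.8% with a gate of 3, 19.3% on thinned cells, 15.8% without other lineages' UMIs and 15.9% with a mitochondrial limit of 10%, all within 1 SD. The cause of these differences was not tested. Among the named genes, the direction turned for Cd40lg (0.24, thinned gate) and Xcl1 (-1.31, thinned gate) against Il21-positive cells, and for Cd40lg (-0.0415 without library 2, up to 0.27 without another) and Tnfrsf9 (-0.53, thinned gate) against S1pr1-positive cells. Depth limits library 3 most, and the fits with only the 2 classes or with paired cells rest on few residual degrees of freedom.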

Other observations

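The gate genes and markers were also measured in CD4 T cells outside the 3 comparisons, and the values are given with no test. In Il10-positive cells of libraries 1 to 3, Cd200 was at 314, 261 and 588 CPM and Tnfsf8 at 284, 93.9 and 224 CPM, while Tnfsf11 was at 60.3, 41.7 and 0 CPM. In Foxp3-positive cells Cd200 was at 194, 120 and 146 CPM. There Tnfsf8 was at 32.7, 24.9 and 0 CPM and Cd40lg at 40.2, 27.1 and 0 CPM. Dusp14 was at 34.4, 111 and 168 CPM in Il10-positive cells and at 71.2, 173 and 87.4 CPM in Foxp3-positive cells. The highest of these came near the lowest helper sum of Dusp14, 183 CPM. Nrgn, without TMM scaling, was at 0, 15.8 and 0 CPM and at 16.7, 22.2 and 0 CPM in these classes. Lag3 was at 1519.6, 1311 and 1091 CPM in Il10-positive cells, above all helper sums.

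Nrgn was also found in CD8 T cells. In libraries 1 to 3 it was there at 30.6, 110.4 and 27.5 CPM without TMM scaling, from 169, 544 and 19 UMIs, against 0.705, 0 and 0 CPM in B cells. Dusp14 was at 41.98, 49.3 and 31.8 CPM in the same CD8 T cells, and Il2 at 2.35, 1.83 and 1.45 CPM. Il17a was found in 3, 1 and 0 helper cells, and Il4 had no UMI in any of them.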
